A study of Mus musculus with 8 samples.

Results

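Nodal, Gdf3, Inhbb, Tdgf1, Acvr2b, Foxh1, Lefty1, Lefty2 and Fst carry or restrain Nodal and activin signalling, and their RNA levels were compared in cultures of neural progenitors with and without raised Bcl6. The genes were taken by symbol from the deposited table, which held all 9 of them among 14954 genes. The 8 libraries came from A2lox.Cre Bcl6 mouse embryonic stem cells, a line with a Bcl6 transgene that tetracycline analogues switch on. Every culture was grown with cyclopamine, a blocker of hedgehog signalling, at 400 ng/ml, and was taken at day 12 of differentiation towards cortical progenitors. The control group was 4 cultures given DMSO for 24 h, and the Bcl6-induced group was 4 cultures given doxycycline at 1 µg/ml for 24 h. Cultures in both groups carried the transgene, so an effect of Bcl6 and one of doxycycline itself cannot be told apart. All the cultures derive from the same inducible line, which had been kept on irradiated mouse fibroblasts before differentiation. Beyond a differentiation number, the labels do not say how separate the cultures of a group were, and the p-values hold only for the spread seen among these libraries. Values of a group are listed in the order of that number.

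Nodal and the activins are secreted ligands of the TGF-beta family. They bind activin receptors, and Nodal also needs a co-receptor of the EGF-CFC family such as Tdgf1 (Cripto). The receptors phosphorylate Smad2 and Smad3, which join Smad4 and act with partners such as Foxh1 on target genes that include Nodal, Lefty1 and Lefty2 themselves. The Lefty proteins and follistatin (Fst) are secreted inhibitors, of Nodal and of activins respectively, so the pathway makes some of its own brakes. The pathway is active in pluripotent cells, and its inhibition is a known way to steer them towards neural fates.

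Lefty2 and Fst, both secreted inhibitors, rose in the Bcl6-induced cultures, and the Nodal co-receptor Tdgf1 fell. Lefty2 was 1.85-fold higher, Fst 1.39-fold higher and Tdgf1 1.35-fold lower. The other 6 genes did not pass the test at an adjusted p under 0.05. Thus 3 of the 9 genes were called, or 33.3%, against 6.81% of all 14954 genes (limma, Benjamini-Hochberg adjustment over all genes). Of these, 2 were higher, beside 4.55% of all genes, and 1 was lower, beside 2.26%. The 4 induced libraries lay wholly above the 4 controls for Nodal, Lefty2 and Fst and wholly below them for Tdgf1, which is 4 of 9 genes beside 17.1% of all genes (10.8% above and 6.32% below). The median log2 fold change of the 9 was 0.25, beside 0.03 for all genes. The 9 genes and all lists below were chosen with earlier results of these data known. Such shares and medians therefore describe the chosen genes and are no test of the pathway.

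Lefty1 and Lefty2 are near copies, so reads had to be told apart between them. Lefty2 lies at chr1:180893108-180899103 and Lefty1 at chr1:180935022-180938400, both on the plus strand of GRCm38 (mm10), 35919 bases apart. The coding sequences of the GENCODE M21 transcripts are 1104 bases long in each gene, and 1014 of these bases, or 91.8%, are identical. In the first 90 coding bases the genes differ at 22 positions. Over the whole transcripts, 281 stretches of 50 bases occur in both genes, which is 17.9% of those in Lefty1 and 11.6% of those in Lefty2. How reads from such stretches were assigned is not given in the sources used here, so the split between the pair is uncertain to that extent.

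The promoters of Nodal and Tdgf1 are shown for the ligand and its co-receptor, whose ratio differed between the groups. Each is the 250 bases before the RefSeq start site in GRCm38.p6, read on the gene's own strand. Capitals mark the short Smad motif CAGAC.
Nodal, chr10:61417722-61417971, plus strand: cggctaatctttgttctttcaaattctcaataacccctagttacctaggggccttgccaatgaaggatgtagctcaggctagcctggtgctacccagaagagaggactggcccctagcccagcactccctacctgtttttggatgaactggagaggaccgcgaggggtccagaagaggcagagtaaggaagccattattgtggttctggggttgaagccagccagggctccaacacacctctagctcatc
Tdgf1, chr9:110946159-110946408, minus strand: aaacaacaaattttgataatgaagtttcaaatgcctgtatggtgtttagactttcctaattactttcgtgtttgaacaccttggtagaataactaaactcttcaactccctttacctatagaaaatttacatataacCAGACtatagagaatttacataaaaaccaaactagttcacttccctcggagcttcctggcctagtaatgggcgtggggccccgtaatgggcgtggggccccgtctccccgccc
The Nodal stretch is 53.2% G and C with 3 CpG sites, and the Tdgf1 stretch is 42.0% G and C with 7, beside a median of 52.4% G and C over all promoters of this length. CAGAC, which 42.2% of 32851 promoters hold on either strand, occurs 1 time in the Tdgf1 stretch, at -113 from the start, and not in the Nodal stretch. Both strands were also searched for the Foxh1 motifs AATCCACA and AATACACA, the Smad palindrome GTCTAGAC, the Bcl6 motif TTCCTAGAA and the looser Bcl6 and Stat motif TTCNNNGAA, which includes TTCCTAGAA. These letters occur in 0.718%, 0.895%, 0.167%, 0.347% and 7.02% of all promoters, in that order, and in neither of these 2 windows. Sequence beyond the 250 bases was not searched, so the lack of such rare motifs says little about how the genes are regulated. Among the 9 genes, RefSeq promoters were matched for 4, and those of Acvr2b and Inhbb, at 72.8% and 68.0% G and C, held no other match than a CAGAC in Acvr2b at -233.

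Levels are given as CPM, the scaled reads of a gene per M scaled reads of its library. The libraries held 9.42 M to 9.74 M reads in the controls and 10.33 M to 15.02 M in the induced group, so every control was shallower than every induced library. With the recovered reads thinned to the shallowest library, Lefty2, Fst and Tdgf1 were again the called genes. Bcl6 lay between 6.01 and 7.12 CPM in the controls and between 325 and 427 CPM in the induced libraries. Control 1 stands apart: its deviations from the control mean fell with transcript length (Spearman's rho -0.62 across 14924 genes, which are not independent), against 0.16 to 0.42 in the other controls, and values without it are given where a call or direction of the 9 genes changes. Markers of the labelled cell type were present, with Nes at 266 to 307 CPM, Sox1 at 37.5 to 52.2 CPM and the forebrain gene Emx2 at 3.81 to 5.31 CPM in the controls. Pluripotency genes were present in the same libraries, with Pou5f1 at 456 to 613 CPM in the controls.

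**Figure D1:**
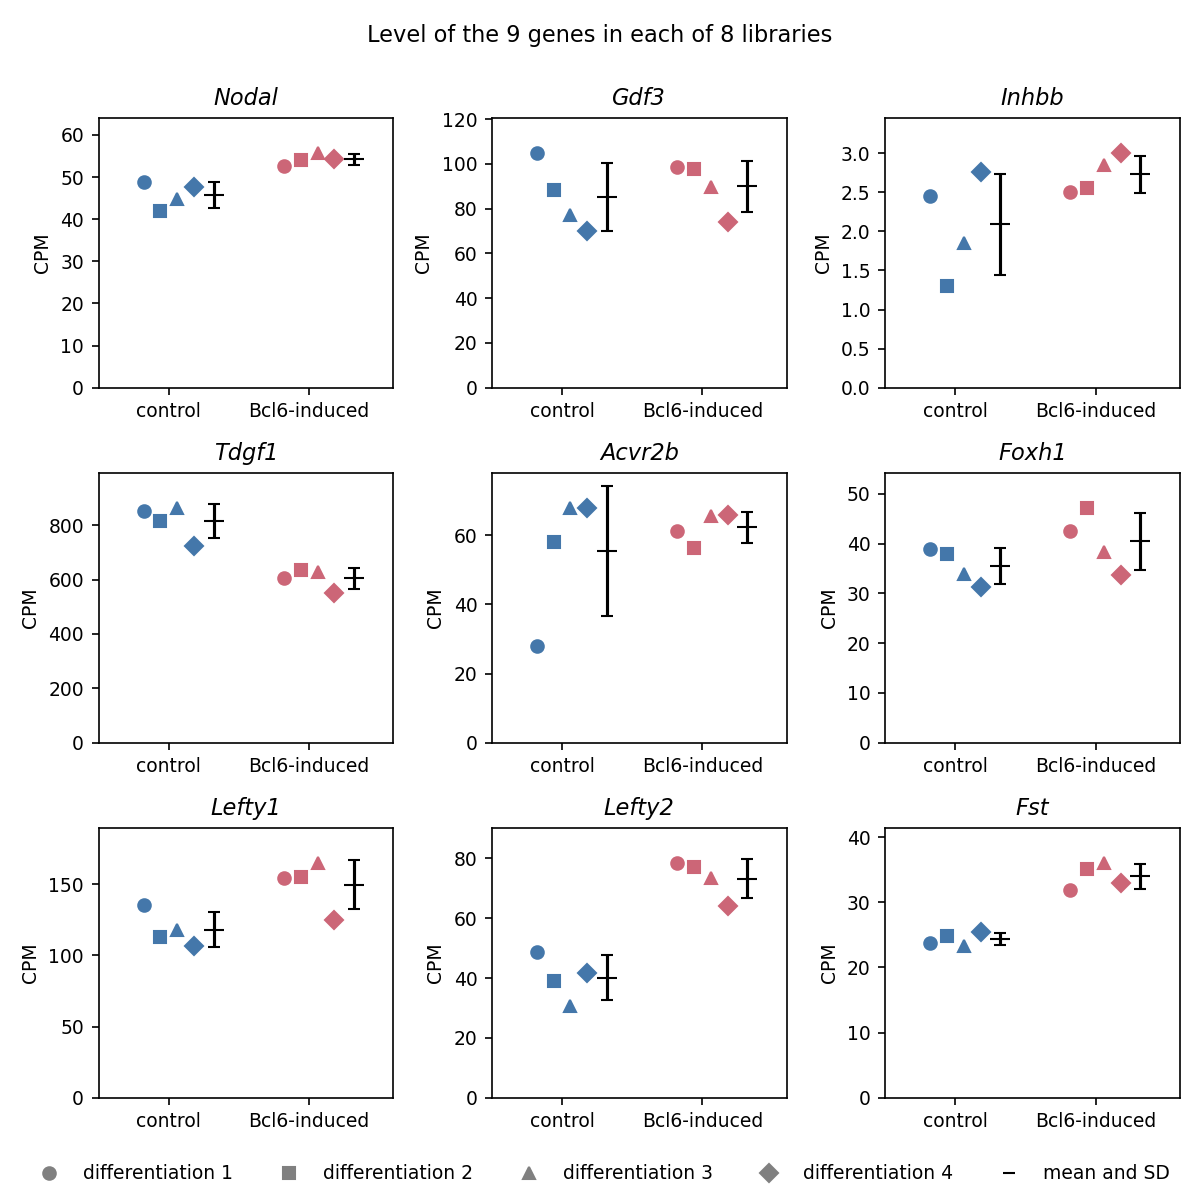
Level of each of the 9 genes in CPM (vertical axes, from 0) in the 4 control and 4 Bcl6-induced libraries, 1 point per library with its differentiation number as the symbol, beside the mean and SD of the group. The groups do not overlap for Nodal, Lefty2, Fst and Tdgf1, and control 1 of Acvr2b sits at 28.1 CPM below every other library.

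Per kilobase of exon, the scale on which genes can be compared, Tdgf1 had the highest control level of the 9, with 311 ± 24.0 CPM per kb (SD, n = 4). Lefty1 followed at 67.2 ± 6.97, Gdf3 at 35.2 ± 6.27, Foxh1 at 26.0 ± 2.64 and Nodal at 21.9 ± 1.47 CPM per kb. Lefty2 (15.3 ± 2.89), Acvr2b (14.1 ± 4.81), Fst (5.31 ± 0.213) and Inhbb (0.492 ± 0.152 CPM per kb) were the lowest. In this order of control levels, the libraries of Foxh1 and Nodal overlapped, as did those of Lefty2 and Acvr2b, and other neighbours did not. In the induced group Lefty2 stood at 28.1 ± 2.48 CPM per kb and overlapped Nodal at 25.9 ± 0.609, Foxh1 at 29.6 ± 4.23 overlapped both, and Gdf3 at 37.1 ± 4.74 overlapped Foxh1. The ligand and its inhibitor, apart in the controls with Lefty2 below Nodal, thus overlapped per length in the induced libraries. The gap in the controls was narrow, with Lefty2 up to 18.7 and Nodal from 20.0 CPM per kb. How reads shared by the Lefty genes were counted could close it.

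Nodal, the ligand that gives the pathway its name, lies at chr10:61417972-61425338 on the plus strand. It was at 48.7, 41.9, 44.9 and 47.7 CPM in the controls and at 52.7, 54.1, 55.8 and 54.4 CPM in the induced libraries. All 4 induced libraries were above all 4 controls, and the induced group was the tighter of the pair, with an SD of 1.28 against 3.07 CPM. The difference of 0.25 ± 0.07 in log2 (SE, 95% interval 0.08 to 0.41) missed the threshold at an adjusted p of 0.0756 (limma). Without control 1 it was 0.28 with an adjusted p of 0.0245, and it passed in that case.

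Gdf3, a related ligand of pluripotent cells that also uses EGF-CFC co-receptors, was at 105, 88.5, 77.1 and 70.2 CPM in the controls and at 98.7, 97.8, 89.6 and 73.9 CPM in the induced libraries (chr6:122605403-122610087, minus strand). The groups covered much the same range. The log2 difference of 0.09 ± 0.13 had a 95% interval of -0.20 to 0.38 (limma adjusted p = 0.733). It was 0.19 without control 1 (adjusted p = 0.270) and -0.00 without control 4. Inhbb, which encodes the beta B subunit of activin B (chr1:119415465-119422248, minus strand), was scarce, with 12 to 26 reads per control and 28 to 37 reads per induced library. Its CPM was 2.46, 1.302, 1.86 and 2.76 in the controls and 2.51, 2.56, 2.86 and 3.01 in the induced libraries, and the groups overlapped. At this depth the interval of its log2 difference ran from -0.11 to 0.97, and the adjusted p was 0.315 (limma). The difference of 0.43 in log2 was 0.22 without control 2, the library with the fewest reads.

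Tdgf1, or Cripto, is anchored in the cell membrane and lets Nodal and Gdf3 engage their receptors (chr9:110939603-110946158, minus strand). Its level was 852, 817, 865 and 725 CPM in the controls, and 607, 634, 630 and 550 CPM after induction. The highest induced library was below the lowest control, and in both groups library 4 was the lowest. The mean fell from 815 ± 62.9 to 605 ± 38.6 CPM (SD, n = 4 each). The log2 difference was -0.43 ± 0.08 (95% interval -0.60 to -0.25) with an adjusted p of 0.0116 (limma), and the fall passed in all 19 alternative analyses. A processed copy in the table, the pseudogene Tdgf1-ps1, was at 52.2 to 62.4 CPM in the controls and 40.6 to 50.6 CPM in the induced libraries, a log2 difference of -0.36 ± 0.09 with an adjusted p of 0.0433 (limma). That call was lost in 8 of 19 alternative analyses, among them those without control 2 (adjusted p = 0.125), control 3 (0.0815) or any 1 induced library, with adjusted p up to 0.142. The sources used here do not say how reads shared by the gene and its copy were counted, so their split is uncertain. In bulk RNA, fewer cells of a type and less RNA per cell cannot be told apart, here or for the genes that follow.

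Acvr2b, a type II activin receptor (chr9:119402118-119434995, plus strand), was at 28.1, 58.1, 67.9 and 68.0 CPM in the controls and 61.4, 56.3, 65.7 and 65.8 CPM in the induced libraries. Control 1 was below every other library, and the rest of the libraries of the groups overlapped. The log2 difference of 0.25 ± 0.24 (adjusted p = 0.562, limma) became -0.05 without control 1 (adjusted p = 0.709). Foxh1, the forkhead partner of Smad2 and Smad3 (chr15:76668225-76669948, minus strand), was at 39.0, 38.0, 33.9 and 31.2 CPM in the controls and at 42.5, 47.2, 38.4 and 33.7 CPM in the induced libraries. These groups overlapped too, and the log2 difference of 0.18 ± 0.12 had a 95% interval of -0.07 to 0.44 (adjusted p = 0.368, limma).

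Lefty2 had the largest change of the 9 genes. Its CPM was 48.8, 39.1, 30.6 and 41.7 in the controls and 78.6, 77.1, 73.3 and 64.2 after induction, from 298 to 460 reads per control and 663 to 1180 per induced library. Every induced library was well above the highest control. The mean went from 40.1 ± 7.53 to 73.3 ± 6.46 CPM (SD, n = 4 each), a log2 difference of 0.89 ± 0.13 (95% interval 0.60 to 1.17) with an adjusted p of 0.00417 (limma). The rise passed in all 19 alternative analyses, and with each library left out in turn it lay between 0.76 and 0.99 in log2.

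Lefty1 was the more abundant of the pair per length, and it was at 135, 113, 118 and 107 CPM in the controls and at 154, 155, 165 and 125 CPM in the induced libraries. Induced libraries 1 to 3 were above every control, and induced library 4 was below control 1, so the groups overlapped. The log2 difference of 0.34 ± 0.10 (95% interval 0.12 to 0.56) did not pass, with an adjusted p of 0.0710 (limma). Without control 1 it was 0.41 with an adjusted p of 0.0178, and without induced library 4 it was 0.43 with an adjusted p of 0.0289.

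Fst encodes follistatin, which binds activins and keeps them from their receptors (chr13:114452290-114458951, minus strand). It was at 23.8, 24.9, 23.3 and 25.5 CPM in the controls and at 31.8, 35.1, 36.1 and 32.9 CPM in the induced libraries. Both groups were tight, with SDs of 0.978 and 1.95 CPM, and they did not overlap. The rise of 0.48 ± 0.08 in log2 (95% interval 0.30 to 0.66) had an adjusted p of 0.00866 (limma), and it passed in all 19 alternative analyses. An antisense gene overlaps Fst and another overlaps Acvr2b in the GENCODE annotation, and whether counting used the strand is not given in the sources used here.

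**Figure D2:**
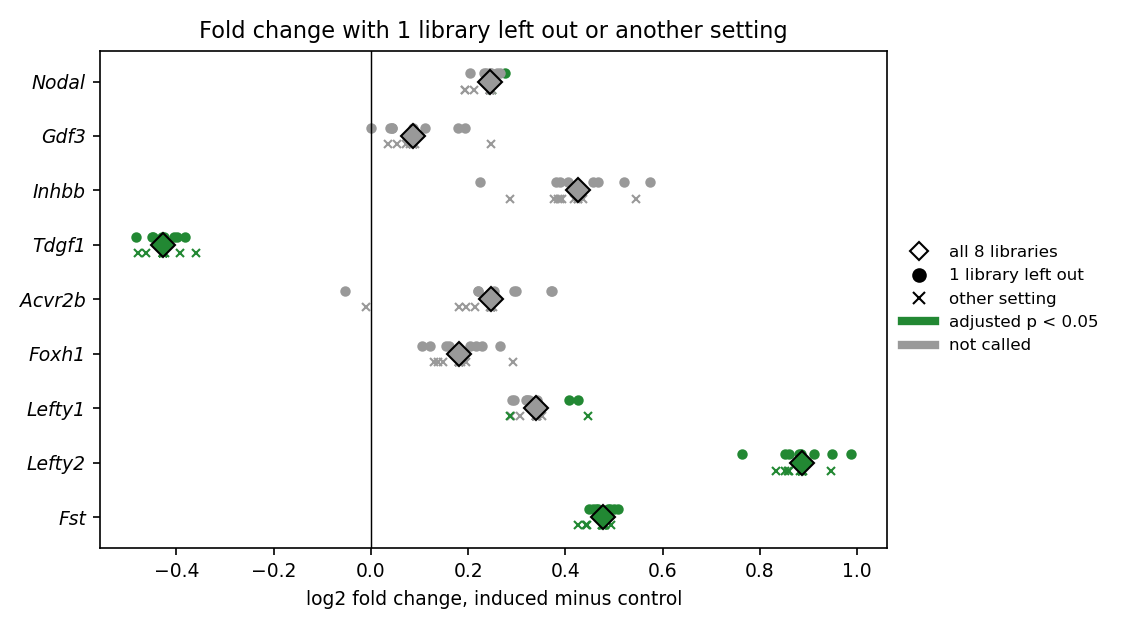
Log2 fold change of each of the 9 genes, induced minus control (horizontal axis), with all 8 libraries (diamonds), with 1 library left out (points) and under other settings (crosses), in green where the adjusted p was under 0.05. Lefty2, Fst and Tdgf1 are green throughout, Nodal and Lefty1 are green in some analyses, and Acvr2b and Gdf3 cross 0.

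Ratios taken within a library do not depend on its scaling, and they are given as descriptions with no test. The ratio of Lefty2 to Nodal was 1.00, 0.934, 0.682 and 0.875 in the controls and 1.49, 1.43, 1.31 and 1.18 in the induced libraries, with every induced library higher. Lefty2 was also higher relative to its neighbour Lefty1, at 0.362, 0.347, 0.259 and 0.391 against 0.510, 0.497, 0.444 and 0.515. By contrast, the ratio of Lefty1 to Nodal overlapped, at 2.24 to 2.77 in the controls and 2.29 to 2.96 in the induced libraries. The ratio of co-receptor to ligand, Tdgf1 over Nodal, was 17.5, 19.5, 19.3 and 15.2 in the controls and 11.5, 11.7, 11.3 and 10.1 in the induced libraries, all of them lower.

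**Figure D3:**
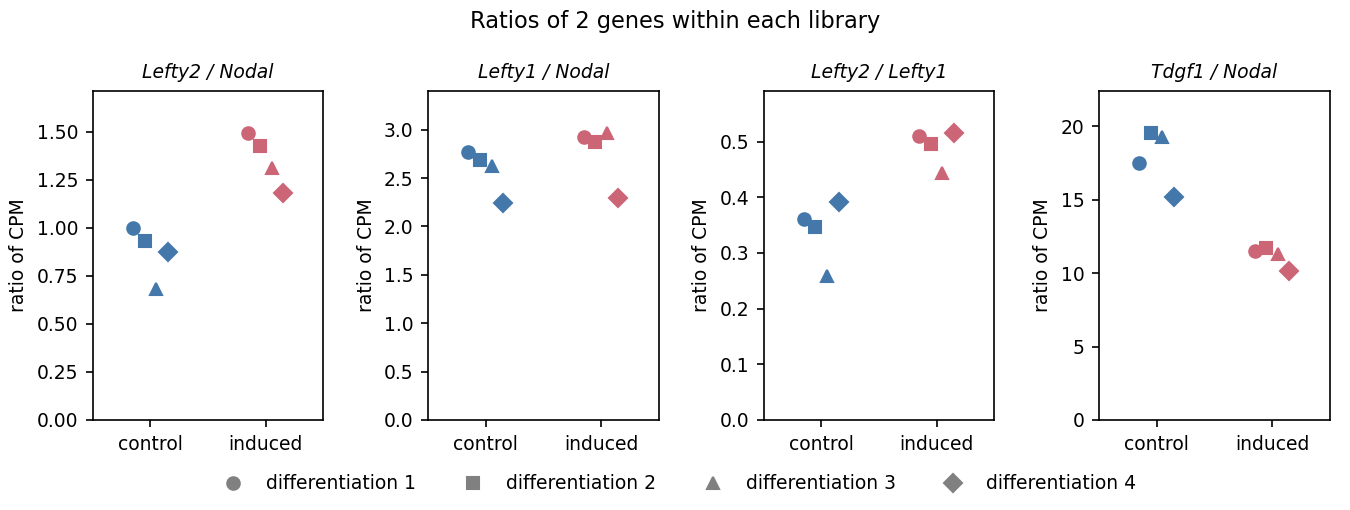
Ratio of the CPM of 2 genes within each library (vertical axes, from 0, no unit) for the 4 control and 4 induced libraries, 1 point per library with its differentiation number as the symbol. The groups are apart for Lefty2 over Nodal, Lefty2 over Lefty1 and Tdgf1 over Nodal, and they overlap for Lefty1 over Nodal.

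Markers of several cell types moved between the same groups, and the counts below stand beside 4.55% of all genes called higher and 2.26% called lower. Of 12 genes of pluripotent cells, which are known to express Nodal, Gdf3, Foxh1, Tdgf1 and both Lefty genes, 8 rose and none fell, and their summed level was 1432 to 1623 CPM in the controls and 1628 to 1916 CPM in the induced libraries. Nanog, a core pluripotency factor, rose by 0.44 ± 0.07 in log2 (limma adjusted p = 0.00586), and Pou5f1 differed by -0.28 ± 0.10 (adjusted p = 0.125). Neural progenitor markers fell in 6 of 8 cases, with sums of 1318 to 1687 CPM in the controls and 821 to 1181 CPM in the induced libraries, and 5 of 6 neuronal markers rose, from 716 to 850 CPM in sum to 1181 to 1402 CPM. In the list for primitive streak and endoderm, 2 of 8 rose, brachyury (symbol T) and Evx1, with sums of 80.7 to 103 CPM and 130.4 to 144 CPM. Much of that shift was brachyury itself, at 17.5 to 23.8 CPM in the controls and 56.8 to 61.9 CPM in the induced libraries. Evx1 was near the floor, with 2 to 5 reads per control and 12 to 24 per induced library. None of 7 fibroblast markers was called, with sums of 512 to 660 CPM and 555 to 672 CPM. No marker in these lists was at 0 in any library, and the part of these shifts in the results for the 9 genes was not tested.

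Set against Nanog and Pou5f1, whose own differences had opposite signs, the genes gave different pictures. Over Nanog, Lefty2 (0.177 to 0.297 in the controls, 0.277 to 0.329 in the induced libraries), Lefty1 (0.561 to 0.820 and 0.537 to 0.737) and Fst (0.134 to 0.155 and 0.133 to 0.161) overlapped between the groups. Nodal over Nanog was lower in every induced library, at 0.251 to 0.296 and 0.220 to 0.249, and so was Tdgf1 over Nanog, at 3.81 to 5.17 and 2.37 to 2.81. Over Pou5f1 the order changed, and every induced library was higher for Lefty2 (0.0583 to 0.0914 and 0.157 to 0.181), Lefty1 (0.202 to 0.234 and 0.321 to 0.354), Fst (0.0388 to 0.0558 and 0.0726 to 0.0849) and Nodal (0.0750 to 0.104 and 0.112 to 0.140). Tdgf1 over Pou5f1 overlapped, at 1.39 to 1.65 and 1.31 to 1.42. Which genes stood apart from a pluripotency marker thus depended on the marker chosen.

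The induced libraries also differed among themselves. Neural progenitor markers summed to 821 and 836 CPM in induced libraries 1 and 2 and to 1165 and 1181 CPM in induced libraries 3 and 4. Lefty2, Gdf3 and Foxh1 were higher in both libraries of the first pair than in the second, for Lefty2 at 78.6 and 77.1 against 73.3 and 64.2 CPM. Nodal, Inhbb and Acvr2b were lower in the first pair, and Lefty1, Tdgf1 and Fst did not separate the pairs. For Nodal the gap was narrow, at 52.7 and 54.1 against 55.8 and 54.4 CPM, and Inhbb rested on 28 to 37 reads per library. The pairs were set by the progenitor sums, and with so few libraries in each a gene can separate them by chance. The share of all genes that separate these pairs was not counted, and whether any of these genes follow the progenitor markers was not tested.

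The rest of the pathway was read from a list of 45 further genes, 37 of them in the table, also chosen with earlier results of these data known. In that list 8 genes rose and 1 fell, or 24.3% beside 6.81% of all genes (4.55% higher and 2.26% lower), and the median log2 fold change was 0.14. The count of 9 was 4 without control 2 or without induced library 1, 5 without induced library 3 and 14 without control 1. Of all genes, 2.4%, 2.06%, 4.34% and 11.3% were called in these settings, in that order. Gdf1, Inhba, Mstn, Fstl3, Cfc1, Acvr1c, Mixl1 and Gsc were absent from the table under these symbols and could not be measured.

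Among further ligands 2 of 5 rose, and among proprotein convertases 1 of 3, beside 4.55% of all genes. Gdf11, which limits neuron production in some neural tissues, went from 20.4 ± 1.67 to 30.4 ± 4.96 CPM, a log2 difference of 0.56 ± 0.12 (limma adjusted p = 0.0217), and it did not pass without control 2 (adjusted p = 0.070) or induced library 3 (0.0542). Tgfb2 went from 16.2 ± 1.08 to 22.3 ± 2.85 CPM, a difference of 0.46 ± 0.11 with an adjusted p of 0.0387 that was above 0.05 in 9 of 19 alternative analyses, among them those without control 2 (0.0850), control 3 (0.0730), control 4 (0.0570) or induced library 1 (0.128), 3 (0.0819) or 4 (0.0877). Of 3 proprotein convertases, enzymes that cut precursors such as that of Nodal, Pcsk6 rose from 24.7 ± 5.11 to 37.6 ± 2.03 CPM (0.63 ± 0.13 in log2, adjusted p = 0.0197), but not without control 2 (0.0626) or induced library 1 (0.0720) or 2 (0.0526). Its relatives Furin and Pcsk5 differed by 0.27 ± 0.09 and 0.48 ± 0.16 with adjusted p of 0.0899 and 0.0913.

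No further receptor passed the test. The type I receptor Acvr1b, which serves Nodal and activin, was at 67.4 to 75.1 CPM in the controls and 77.5 to 85.3 CPM in the induced libraries, apart but not called (0.19 ± 0.07 in log2, limma adjusted p = 0.118). Acvr2a, the other activin type II receptor, differed by 0.08 ± 0.11, and the TGF-beta receptors Tgfbr1 and Tgfbr2 by -0.03 ± 0.14 and 0.24 ± 0.12. Tgfbr3, or betaglycan, a co-receptor of TGF-beta and inhibin, rose from 22.7 ± 3.58 to 31.8 ± 3.14 CPM (0.50 ± 0.13, adjusted p = 0.0430), and its call was lost in 11 of 19 alternative analyses, including those that left out any 1 library other than control 1, with adjusted p up to 0.142. Of 4 further secreted regulators 1 fell, beside 2.26% of all genes. It was Fstl1, a follistatin-like glycoprotein, which went from 594 ± 47.3 to 438 ± 13.7 CPM (-0.44 ± 0.07, adjusted p = 0.00688). Cer1, a secreted antagonist of Nodal and BMP, was scarce at 1.35 to 2.56 CPM in the controls and 0.551 to 1.303 CPM in the induced libraries. Its groups were apart, and its log2 difference of -1.01 ± 0.33 (95% interval -1.73 to -0.29) was not called, with an adjusted p of 0.0911 (limma). The median log2 fold change of the 4 secreted regulators was -0.37.

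Inside the cell, 2 of 14 Smads and nuclear regulators rose, Smad7 and Ski, beside 4.55% of all genes. Both restrain the pathway, as do most genes of that list. Smad7, the inhibitory Smad that acts at the receptors, was at 26.3, 24.8, 25.3 and 27.3 CPM in the controls and 37.7, 33.6, 37.2 and 33.2 CPM in the induced libraries. The groups were apart, with a log2 difference of 0.45 ± 0.08 (limma adjusted p = 0.0116), which was not called without induced library 1 (adjusted p = 0.0577). Ski, a corepressor that binds Smad complexes, went from 98.1 ± 9.10 to 123 ± 3.85 CPM (0.33 ± 0.08, adjusted p = 0.0292), and its call was lost in 6 of 19 alternative analyses, among them those without control 2 or any 1 induced library, with adjusted p up to 0.102. The signal-carrying Smads differed among themselves: Smad2 by 0.24 ± 0.09 (adjusted p = 0.146), Smad3 by -0.34 ± 0.09 (adjusted p = 0.0519) and Smad4 by -0.02 ± 0.07. Smad3 was called lower without control 1 (-0.41, adjusted p = 0.00585) and in 7 other alternatives. Other negative regulators, Skil, Smurf1, Smurf2, Tgif1, Tgif2 and Pmepa1, were not called, with log2 differences from -0.22 to 0.28. Skil was called lower without control 1 (-0.39, adjusted p = 0.00314), and Smurf1 higher without control 1 (0.23, adjusted p = 0.0438) or control 4 (0.33, adjusted p = 0.040).

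Of 3 further targets, both T-box genes rose, beside 4.55% of all genes. Brachyury, the mesoderm factor with symbol T, was at 23.2, 18.9, 23.8 and 17.5 CPM in the controls and 59.5, 61.4, 61.9 and 56.8 CPM in the induced libraries. Its groups were far apart, with a log2 difference of 1.53 ± 0.11 and an adjusted p of 0.00011 (limma). Eomes, which marks mesendoderm and also intermediate progenitors of the cortex, went from 13.03 ± 0.257 to 24.9 ± 1.63 CPM (0.93 ± 0.09 in log2, adjusted p = 0.00051). Foxa2, which Nodal signals can switch on in the endoderm, differed by -0.24 ± 0.18 and was not called. Eomes, brachyury and Fstl1 were called in all 19 alternative analyses.

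**Figure D4:**
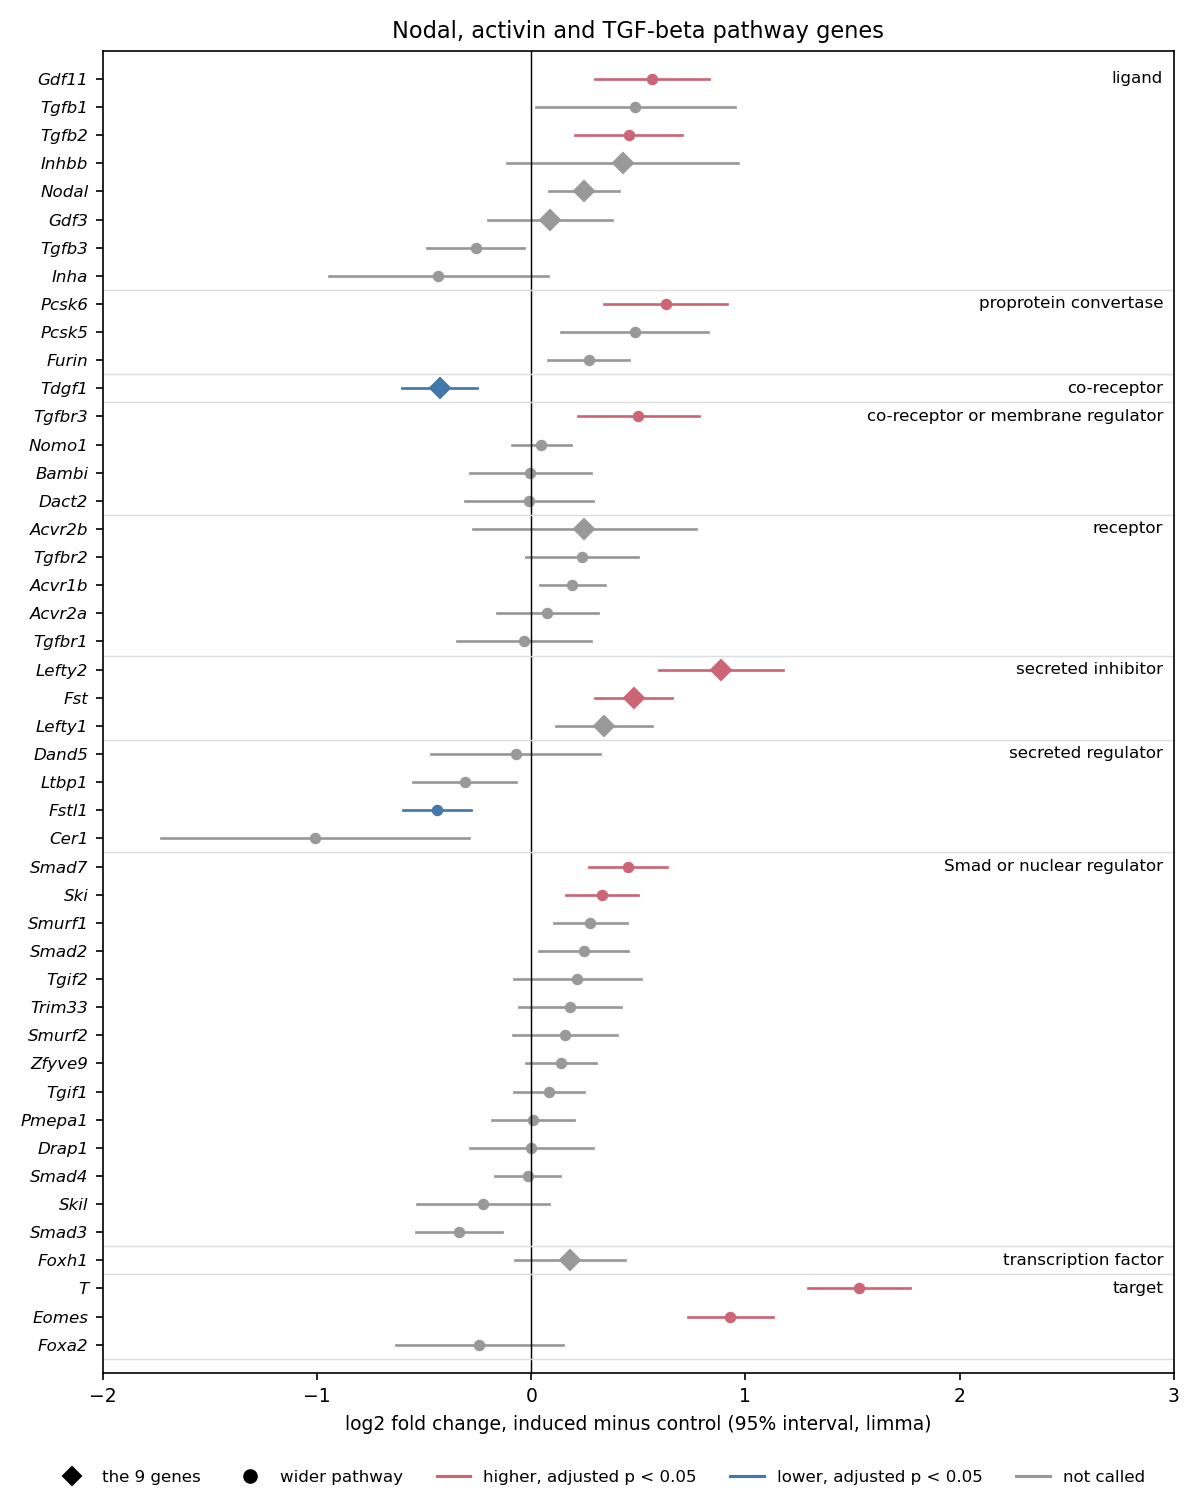
Log2 fold change, induced minus control, with its 95% interval from limma (horizontal axis) for the 9 genes (diamonds) and 37 further pathway genes (circles), grouped by role and coloured by call at an adjusted p under 0.05. Lefty2 at 0.89, Eomes at 0.93 and brachyury (T) at 1.53 lie farthest to the right, and Tdgf1 at -0.43 and Fstl1 at -0.44 are the called falls.

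For each of the 9 genes, the genes with the most similar profile were found by the root mean square difference of log2 values, each centred on its mean over the 8 libraries, among 11872 genes with a mean of at least 5 CPM. Nearest to Lefty2 were Acta2 (0.0906), Chst8 (0.0970) and Irak2 (0.107), and nearest to Fst were Coro1c (0.0471), Nuak1 (0.0530) and Osbpl5 (0.0552). Among the nearest to Tdgf1 were Hdac5 (0.0527) and its own pseudogene Tdgf1-ps1 (0.0552). Nodal was nearest to Sesn2 (0.0361), Ipo4 (0.0393) and Plekhm2 (0.0442), and Lefty1 to Cecr5 (0.0639), Degs1 (0.0647) and Vat1 (0.0713). Between the 9 genes themselves the differences ran from 0.101 (Gdf3 and Foxh1) to 0.688 (Lefty2 and Tdgf1). They were 0.145 between Nodal and Lefty1, 0.364 between Nodal and Lefty2 and 0.321 between the Lefty genes. A nearest gene is the closest of 11872 candidates, so its distance cannot be weighed against that of a fixed pair. Of the genes not called, Foxh1 was nearest to Hs1bp3 (0.0393), Acvr2b to Nr2c2 (0.0295), Gdf3 to Mgst3 (0.0488) and Inhbb, at a wider 0.134, to Lgals3.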

How the data were processed

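RNA from 8 cultures was sequenced, per the labels' protocols, from stranded TruSeq mRNA libraries. STAR 2.5.3a, HTSeq 0.9.1, edgeR 3.20.1 and the genome build mm10 are named in the submitters' processing notes, with no role or order. The authors deposited 1 table of 14954 genes, in which decimal commas had become column breaks; each line was rejoined, and the authors' statistics columns were not used. The deposited values are a score, not raw counts: whole numbers summing to 19.93 M to 19.96 M per library. In each library at least 99.6% of them were exact rounded-up multiples of a step between 1.33 and 2.12, against at most 79.3% for a shifted step, which gave the reads behind them.

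The test was limma 3.58.1 (R 4.3.3) on log2(value + 1) with a variance trend and no covariates, and p-values were adjusted over the whole table by the Benjamini-Hochberg method; the pseudocount of 1 understates changes of scarce genes. No low-value filter was needed, since the lowest gene mean was 15.1 scaled reads. The script was tested on simulated data. The 9 genes and all lists were chosen with earlier results of these data known. All 9 genes are named, with further pathway genes that were called, all receptors, Smads and targets, and the 3 nearest profiles. Alternatives were other pseudocounts, scalings, filters, weights, blocks and tests, thinned reads and each library left out. Positions and coding sequences came from GENCODE M21, promoters from RefSeq. Some items are not reported here.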

Additional observations from a re-analysis of the deposited data

Results flagged for a closer look

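In 78 groups of 4 libraries, from the 9 genes and the other genes followed across settings, 4 had a highest or lowest library whose gap to the next, as a share of the group's range, exceeded Dixon's 95% value, which chance gives in about 1 group in 20. Control 1 was the low library in 3 of them. Tgfbr3 stood at 17.3 CPM in control 1, against 23.7 to 24.9 CPM in the other controls. Smad3 stood at 86.7 CPM in control 1, against 105 to 108 CPM. Trim33, a Smad4-binding ubiquitin ligase, stood at 136 CPM in control 1, against 187 to 195 CPM. Eomes was highest in induced library 3, at 27.3 CPM, against 23.8 to 24.3 CPM in the other induced libraries. None of the 9 genes was beyond that value, although Acvr2b was at 28.1 CPM in control 1.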

How the results depend on the processing

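Lefty2, Fst and Tdgf1 kept their calls in all 19 alternatives. With library weights, 5 of the 9 genes were called, Nodal (adjusted p = 0.0203) and Lefty1 (0.00333) being added, and with each library left out 3 to 5. Once a trend on length and GC was removed, 4 of the 9 were called, Lefty1 being added. The wider list had 18 called genes with library weights and 4 to 14 with libraries left out. Over all genes, 2507 were called with library weights, 1757 (897 higher, 860 lower) once a trend on length and GC was removed, and 308 to 1697 with libraries left out. The split of 681 higher and 338 lower was 536 and 424 with median-of-ratios scaling and 501 and 474 with upper quartile scaling. Same-numbered libraries did not deviate together throughout (correlations 0.03, 0.01, -0.03 and 0.37), so numbers were not taken as pairs; with the replicate block 827 genes and 3 of the 9 were called. Directions that turned all belonged to uncalled genes. With 1 library left out, the log2 difference ran from -0.00057 to 0.19 for Gdf3, -0.052 to 0.37 for Acvr2b, -0.025 to 0.13 for Acvr2a, -0.14 to 0.051 for Tgfbr1, -0.061 to 0.021 for Smad4, -0.085 to 0.15 for Drap1 and -0.046 to 0.051 for Pmepa1. With library weights it turned for Acvr2b (-0.0094), Acvr2a (-0.032) and Drap1 (0.11), and with voom for Drap1 (0.0019). Pmepa1 turned with median-of-ratios (-0.023) and upper quartile scaling (-0.042) and without the length and GC trend (-0.089). The cause of these turns was not tested. The edgeR test planned on recovered reads was not run. In its place limma voom on these reads, added after seeing the data, gave 1092 genes and the same 3 of the 9. Depth limits Inhbb, at 12 to 37 reads per library, and Cer1.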
